A study of Mus musculus with 12 samples.

Results

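The cytosolic ribosomal protein genes encode the protein parts of the ribosome outside mitochondria. They were found by their symbols (Rpl, Rps and Rplp names and Rpsa, without pseudogenes), which matched 89 genes, and by a mean CPM (counts scaled to the library's total) of at least 1 over 12 libraries. That left 84 of 55385 genes, 34 of the small and 50 of the large subunit. Each library was made from satellite cells, which are the resident stem cells of muscle, isolated from the hindlimbs of 1 C57BL/6J mouse and frozen without culture in between. There were 3 female and 3 male mice with a Keap1 genotype read as heterozygous (Het) and 3 female and 3 male mice labelled Keap1 knockout (KO), so on that reading every control animal also carries a Keap1 alteration. KEAP1 is the adaptor that sends the transcription factor NRF2 for degradation, and the stated question was how this pair acts in these cells in each sex. The animals' age, the form of the Keap1 alleles and any Cre driver are not given in the sources used here. Values are set side by side by animal number, as Het164 or KO166.

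A ribosome is built from ribosomal RNA and one copy of most ribosomal proteins, and the messages of these proteins belong to the most abundant in a cell. They share a start site within a run of pyrimidines, the TOP motif, through which mTORC1 and LARP1 control their translation and stability. Quiescent satellite cells hold few ribosomes and make more when they activate.

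Total counts ran from 13042039 to 19273245 per library. Keap1 itself stood at 7.18 to 9.56 CPM in female Het libraries and 11.02 to 12.95 CPM in female KO libraries, and between 5.33 and 9.78 CPM in the male libraries. These counts sum all exons and do not check the genotype, so the libraries are called KO by their label. The NRF2 target Nqo1 was at 2.08 to 5.75 CPM in all Het and 31.2 to 109.6 CPM in all KO libraries. All 14 satellite cell markers examined were detected, and none of the markers of 8 other cell types was at 0 in every library. Among those 8, the markers of fibro-adipogenic progenitors had the highest sums, which are given with the other marker sums below. Each sex has a count table of its own, so sex and table cannot be told apart, and genotypes were compared within a sex. In bulk RNA, fewer cells of a type and less RNA per cell cannot be told apart.

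All 84 members were measured deeply enough to be tested in both sexes. On the scale used from here on, CPM after TMM scaling of library sizes, their median level was 335.6 CPM. Above 100 CPM stood 71 members and below 10 CPM stood 6, and the lowest count of any member in any library was 20. Per kilobase of exon, the highest were Rplp0, the base of the stalk that recruits elongation factors, at 1642 CPM per kb, and Rpl4, which lines the peptide tunnel, at 1188 CPM per kb. Rplp1 (760 CPM per kb) and Rpl36 (745 CPM per kb) were also among the 5 highest. At the other end were Rps10 (2.61 CPM per kb), Rpl6l (2.74 CPM per kb), Rps3a2 (3.83 CPM per kb), Rpl24 (6.57 CPM per kb) and Rps4l (6.89 CPM per kb). Rpl6l, Rps3a2 and Rps4l carry names of gene copies, whereas Rps10 and Rpl24 are core ribosomal proteins. Other gene models overlap 28.7% of the exonic bases of Rps10 and 47% of those of Rpl24, and reads on several genes or several places were not counted. Whether that sets their low level was not tested. For 15 members in all the overlap was 10% or more. Just inside the level set for members were Rpl6l, Rps3a2 and Rpl32l, at 2.41, 3.09 and 5.85 CPM before TMM scaling, and just outside were Rps3a3 (0.797 CPM), Rpl3l (0.434 CPM) and Rpl39l (0.0266 CPM). The other symbol matches left out, Rpl10l and Rps12l1, had 0 counts in all libraries.

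In females, ribosomal protein messages stood higher in KO than in Het libraries as a family, by small amounts, and 1 gene passed the test. Of the 84 members, 81 had a fitted log2 fold change above 0, against 50.5% of all 14036 genes tested, and 3 had one below 0, against 49.5%. Their median log2 fold change was 0.44, against 0.00 over all genes, and the range ran from -0.40 to 0.91. By the edgeR quasi-likelihood test with Benjamini-Hochberg adjustment over all genes, 1 member was higher and 0 were lower at an adjusted p under 0.05. Of all genes 1.29% were higher, 0.983% lower and 2.27% in either direction. In this test the share of members called was thus no higher than the background. The same held for limma voom, which called 1 member (303 of 14036 genes). It did not hold for DESeq2, which called 11 members (723 of 14036 genes). With no filter on low counts edgeR called 25 members (1000 of 29014 genes), also a higher share than of all genes. Without Het165 edgeR called 9 members (1479 of 14439 genes). Without KO166 it called 4, a higher share than of all genes, and without Het164, Het181, KO178 or KO188 it called 0. At an unadjusted p under 0.05, 45 members were higher (8.89% of all genes) and 1 was lower (9% of all genes). All 3 KO libraries lay above all 3 Het libraries for 18 members (11.9% of all genes) and below them for 1 (10.4% of all genes). The members moved together from library to library, so these counts are not independent of each other.

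The summed level of the 84 members was 34609, 32629 and 28279 CPM in Het164, Het165 and Het181, and 32648, 41044 and 46723 CPM in KO166, KO178 and KO188. The KO mean was 1.26 times the Het mean, but the groups overlapped, because KO166 lay between Het165 and Het164. On library totals without TMM scaling they did not overlap, with 28719 to 34673 CPM in Het and 36453 to 48217 CPM in KO libraries and a ratio of 1.31. KO188 had the highest value of its group for 80 members and KO166 the lowest for 81. KO178 stood above all Het libraries for 73 members and KO188 for 79, whereas KO166 stood above them for 19, below them for 14 and inside their range for 51. Among the Het libraries, Het181 was lowest for 64 members. The ratio was 1.27 for the small and 1.25 for the large subunit, and in both the female groups overlapped. Without KO188 the median log2 fold change of the members was 0.26, without Het181 it was 0.31 and without KO166 it was 0.57.

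**Figure D1:**
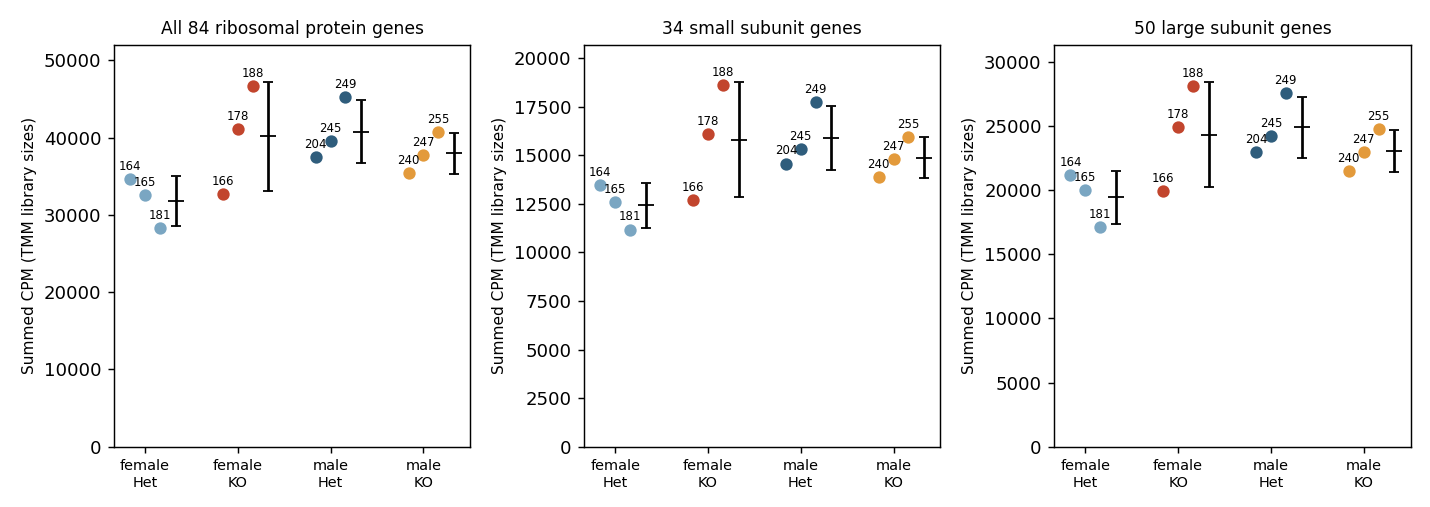
Summed CPM (TMM library sizes) of all 84 ribosomal protein genes, of the 34 small subunit genes and of the 50 large subunit genes, one point per library with its animal number and, beside the points, the group mean with its SD (n = 3). KO178 and KO188 stand above every female Het library and KO166 does not, while the male groups overlap with the KO mean at 0.931 of the Het mean.

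In males the family stood slightly the other way, and no member passed. Of the 84 members, 72 had a fitted log2 fold change below 0, against 48.3% of 13361 genes tested, and 12 had one above 0, against 51.7%. The median was -0.11, against 0.01 over all genes, with a range from -0.58 to 0.16. By edgeR with Benjamini-Hochberg adjustment 0 members passed, against 0.861% of all genes (0.704% higher and 0.157% lower). DESeq2 and limma voom also called 0 (280 and 118 of 13361 genes). At an unadjusted p under 0.05, 6 members were lower (5.05% of all genes) and 0 higher (7.31% of all genes). The KO libraries all lay below the Het libraries for 15 members (7.76% of all genes) and above them for 0 (9.24% of all genes). The summed level was 37513, 39544 and 45275 CPM in Het204, Het245 and Het249, and 35377, 37744 and 40714 CPM in KO240, KO247 and KO255, a ratio of 0.931 with overlapping groups. Het249 held the highest value of its group for 72 members and Het204 the lowest for 74. Without Het249 the median of the members was -0.07 and 19 members had a fitted change above 0. Without KO255 these were -0.18 and 8, without Het204 -0.16 and 3, and without KO240 -0.07 and 17.

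**Figure D2:**
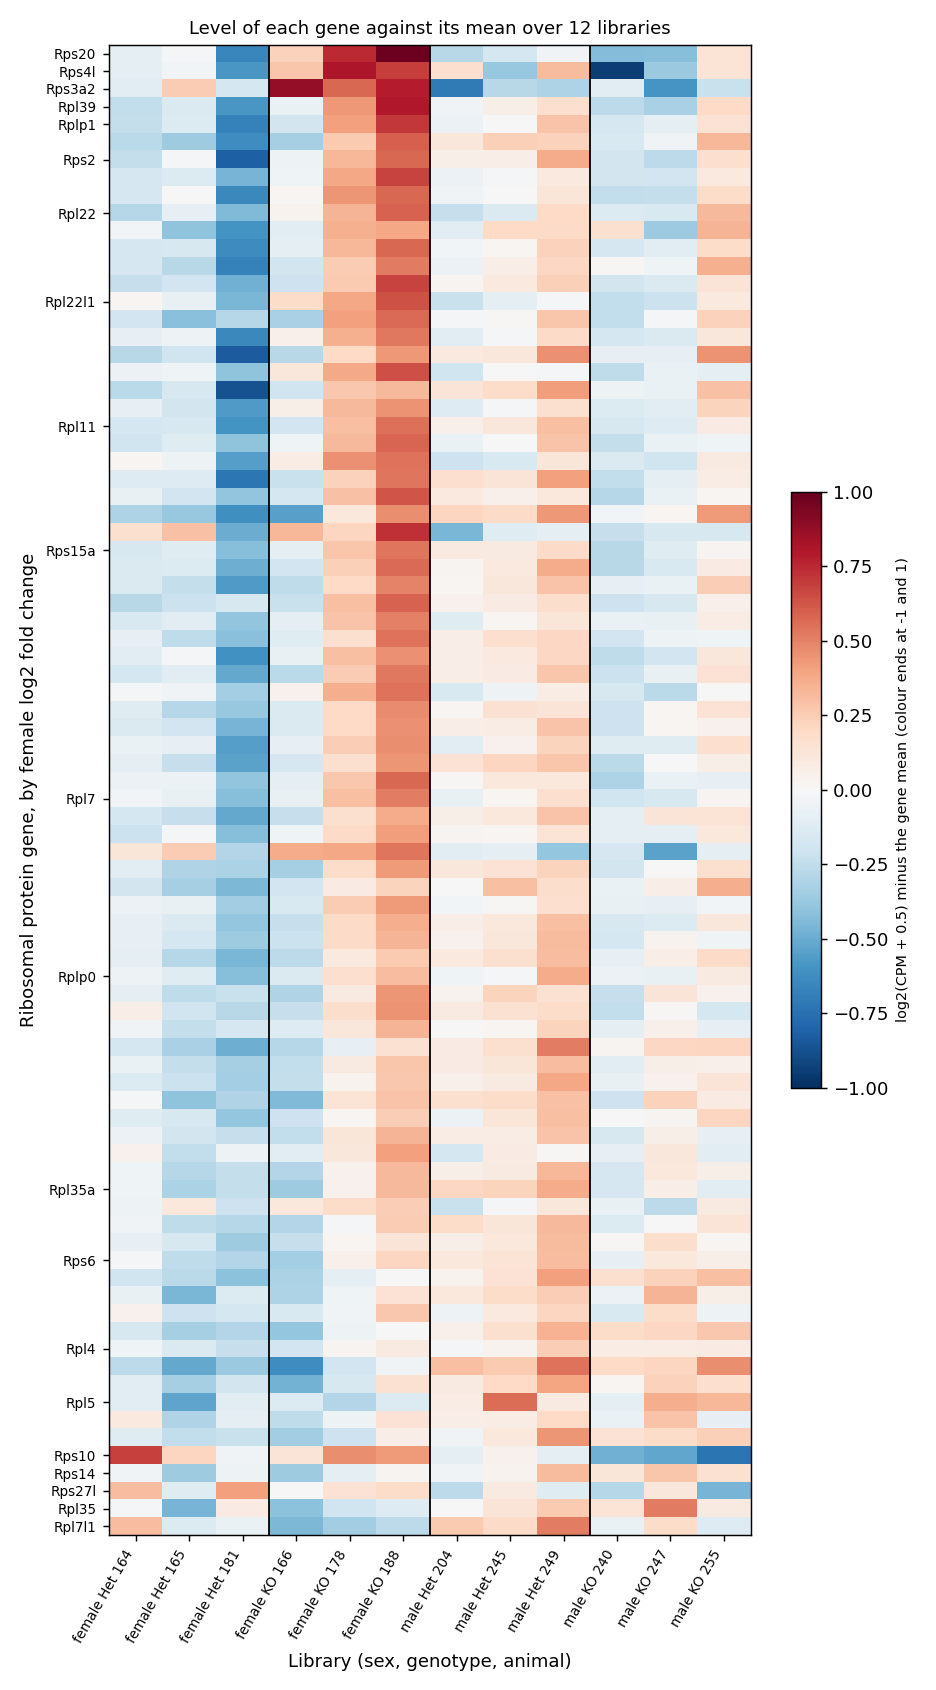
Each row is 1 of the 84 ribosomal protein genes, ordered by the female log2 fold change with some rows named, and each column 1 library, with colour for log2(CPM + 0.5) minus the gene's mean over 12 libraries. Most rows are low in Het181 and high in KO178 and KO188, and Rpl7l1, Rpl35 and Rps27l in the bottom rows are not.

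The female and the male change were compared in 1 fit of all 12 libraries. The female change was the larger for 81 members, against 49.2% of 14772 genes, with a median difference of 0.55 on the log2 scale. By edgeR with adjustment over all genes 0 members passed for the difference, against 0.00677% of all genes. At an unadjusted p under 0.05 there were 51 members with a higher change in females (5.99% of all genes) and 0 with a lower one (6.39% of all genes). DESeq2 called 1 member, Rps20 (adjusted p = 0.0495), and 238 of all 14772 genes. Limma voom called 0 members and 1 of 14772 genes. For the average of both sexes 77 members had a value above 0, against 49.4% of all genes, and edgeR called 0 members, against 3.41% of all genes (2.15% higher and 1.27% lower). At an unadjusted p under 0.05 there were 12 members (17% of all genes). Of these 11 were higher (9.04% of all genes) and 1 lower (7.96% of all genes). For the average DESeq2 called 1 member, Rpl7l1 (843 of 14772 genes), and limma voom 0 (507 of 14772). Fitted changes were above 0 in females and below 0 in males for 70 members, above 0 in both for 11, below 0 in both for 2, Rpl7l1 and Rps27l, and reversed for 1, Rpl35.

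**Figure D3:**
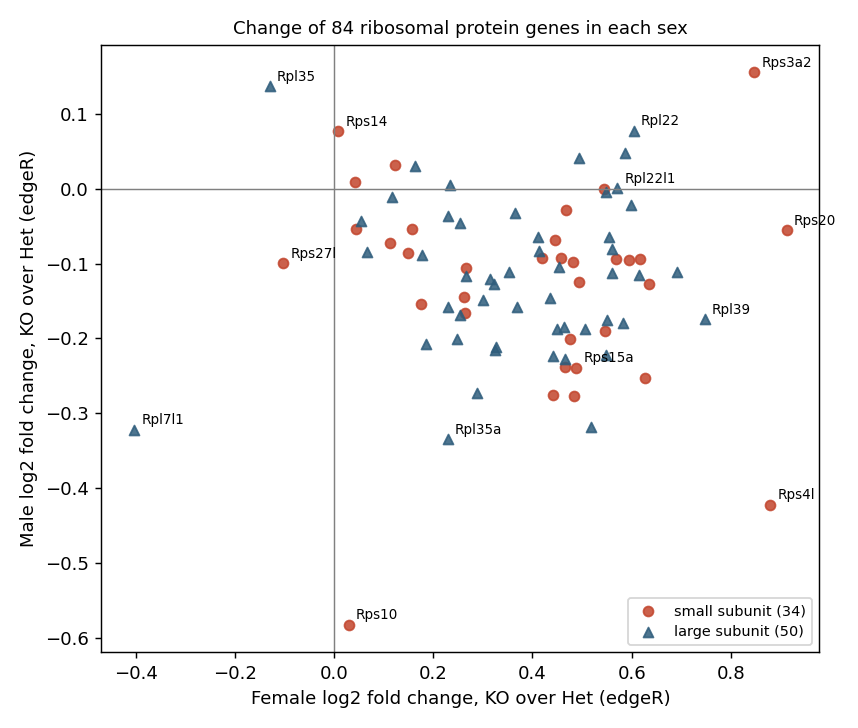
Log2 fold change of KO over Het in females (x axis) and in males (y axis) from separate edgeR fits for 84 ribosomal protein genes, with circles for the small and triangles for the large subunit. Most genes lie to the right of 0 and below 0, with Rpl7l1 alone far to the left and Rps20 at the right edge.

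Rps20, a protein of the small subunit head that is ubiquitylated on stalled ribosomes, was the member that passed in females (ENSMUSG00000028234, GRCm38 chromosome 4, 3831334 to 3835665). It stood at 186.7, 197.8 and 126.8 CPM in Het164, Het165 and Het181, and at 234.0, 334.6 and 393.9 CPM in KO166, KO178 and KO188. All KO libraries were above all Het libraries, and the mean rose 1.88-fold, from 170.4 ± 38.2 to 320.8 ± 80.9 CPM (SD, n = 3 each). The log2 fold change was 0.91 ± 0.211 (SE, 95% interval 0.452 to 1.37, edgeR adjusted p = 0.0466). The call was lost without Het164, Het181, KO178 or KO188 (edgeR adjusted p = 0.121, 0.141, 0.132 and 0.207), and it passed without Het165 (0.0259) or KO166 (0.0270). The male values of Rps20 were 164.3, 176.0 and 194.7 CPM in Het204, Het245 and Het249 and 147.1, 148.1 and 218.5 CPM in KO240, KO247 and KO255. Those groups overlapped, with a 95% interval of -0.395 to 0.284 for the log2 fold change. The difference between the sexes was 0.98 (95% interval 0.381 to 1.57, edgeR adjusted p = 0.196).

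Rps20 belongs to 4 small subunit proteins that receive ubiquitin when ribosomes stall, together with Rps2, Rps3 and Rps10. Of these edgeR called 1 in females, Rps20 itself, and 0 in males (2.27% and 0.861% of all genes). The medians of the 4 were 0.44 and -0.20. Rps2 was at 564 to 984 CPM in female Het and 956 to 1481 CPM in female KO libraries, with overlap and an edgeR adjusted p of 0.163. Rps10 had the lowest male change of all members, with 5.39, 5.95 and 5.39 CPM in Het204, Het245 and Het249 and 3.99, 3.87 and 3.28 CPM in KO240, KO247 and KO255. These groups were apart, with a log2 fold change of -0.58 ± 0.237 (SE) that did not pass (edgeR adjusted p = 0.336). In females Rps10 ran from 5.62 to 9.56 CPM in Het and from 6.34 to 8.15 CPM in KO libraries. Among 16 enzymes and sensors of stalled ribosomes, edgeR called 0 in females and 1 in males (2.27% and 0.861% of all genes). The 1 called was Rnf14, a ubiquitin ligase of stalled ribosomes. It rose from between 38.6 and 39.7 CPM in male Het to between 56.2 and 66.4 CPM in male KO libraries (edgeR adjusted p = 0.0418).

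In the head of the small subunit as a whole, 14 members, the medians were 0.34 in females and -0.13 in males. There edgeR called 1 in females, again Rps20, and 0 in males (2.27% and 0.861% of all genes). Rps6, the substrate of S6 kinase whose phosphorylation reports mTORC1 activity, was at 613, 518 and 504 CPM in Het164, Het165 and Het181 against 489, 639 and 718 CPM in KO166, KO178 and KO188, which overlapped. In males its Het libraries (664, 681 and 766 CPM) lay above its KO libraries (584, 664 and 645 CPM), with Het204 and KO247 nearly equal and an edgeR adjusted p of 0.686. Rps15a, a protein of the small subunit body, was the only member whose groups were apart in opposite directions in both sexes, higher in females and lower in males, which held for 0.544% of 13062 genes tested in both. The opposite pattern, which 0.628% of those genes had, and groups higher in both sexes, which 2.37% had, were found in 0 members. It stood at 208, 214 and 173 CPM in female Het and at 217, 281 and 336 CPM in female KO libraries. Its male values were 246.998, 247.2 and 266 CPM in Het and 192, 214 and 237 CPM in KO libraries. Neither change passed (edgeR adjusted p = 0.167 and 0.465), nor did the difference of 0.73 between them (95% interval 0.286 to 1.18, edgeR adjusted p = 0.196).

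In the large subunit, the stalk proteins Rplp0, Rplp1, Rplp2 and Rpl12, where elongation factors dock, had medians of 0.41 in females and -0.12 in males. Of these edgeR called 0 in either sex (2.27% and 0.861% of all genes). DESeq2 called 1 in females, Rplp1 (723 of 14036 genes). Rplp1 was at 312, 334 and 231 CPM in Het164, Het165 and Het181 and at 324, 489 and 603 CPM in KO166, KO178 and KO188. KO166 lay inside the Het range, and the adjusted p was 0.13 by edgeR. Rpl5 and Rpl11, which with 5S ribosomal RNA bind MDM2, had 0 called by edgeR in either sex (2.27% and 0.861% of all genes). Rpl11 was at 248.9, 252 and 185 CPM in Het and 246, 346 and 411 CPM in KO libraries, a log2 fold change of 0.55 ± 0.192 (SE) that did not pass (edgeR adjusted p = 0.169). Rpl5 was at 601, 449 and 599 CPM in Het and 592, 529 and 589.9 CPM in KO libraries, with a log2 fold change of 0.05 ± 0.152 (SE), and the difference between Rpl5 and Rpl11 was not tested. Other gene models overlap 26.7% of the exonic bases of Rpl5.

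The 8 proteins of the peptide tunnel and its exit ring had medians of 0.23 in females and -0.15 in males. Of the 8 edgeR called 0 in either sex (2.27% and 0.861% of all genes). DESeq2 called 1 in females, Rpl39 (723 of 14036 genes). Rpl39, a short X-linked protein in the tunnel wall, had the fourth highest female change of all members (GRCm38 chromosome X, 37082520 to 37085402). It stood at 69.1, 74.0 and 54.6 CPM in Het164, Het165 and Het181 and at 78.0, 110.6 and 143.5 CPM in KO166, KO178 and KO188. The groups were apart, narrowly between Het165 and KO166, and the log2 fold change of 0.75 ± 0.204 (SE) did not pass (edgeR adjusted p = 0.0861). It passed with DESeq2 (adjusted p = 0.0163) and in the edgeR fit of all 12 libraries (adjusted p = 0.0382). In males Rpl39 was at 80.2, 85.1 and 92.3 CPM in Het and 68.3, 65.3 and 94.1 CPM in KO libraries, which overlapped. Rpl35, at the tunnel exit, had fitted changes of -0.13 in females and 0.14 in males, with 398 to 583 CPM in female Het, 414 to 502 CPM in female KO, 547 to 658 CPM in male Het and 585 to 790 CPM in male KO libraries. All its groups overlapped, and other gene models cover 66.2% of its exonic bases. Rpl35a, a large subunit protein, was at 186, 188.3 and 208 CPM in male Het and 144, 169 and 149 CPM in male KO libraries. These groups were apart, with the smallest male p of any member and a log2 fold change of -0.33 ± 0.121 (SE, edgeR adjusted p = 0.275).

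The 4 X-linked members, Rps4x, Rpl10, Rpl36a and Rpl39, had medians of 0.53 in females and -0.10 in males. All 4 had an unadjusted p under 0.05 in females, as had 46 of all 84 members (17.9% of all genes in either direction). Of the 4 edgeR called 0 in females (2.27% of all genes) and DESeq2 1, Rpl39 (723 of 14036 genes). The 20 members whose human counterparts are mutated in Diamond-Blackfan anaemia, a failure of red cell formation, had medians of 0.38 and -0.14. By edgeR 0 were called in either sex (2.27% and 0.861% of all genes), and DESeq2 called 1 in females, Rps24 (723 of 14036 genes). At an unadjusted p under 0.05 were 10 in females and 4 in males (17.9% and 12.4% of all genes). Over all 84 members these counts were 46 and 6.

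Of 11 members in paralog pairs, 9 had a fitted female change above 0 (50.5% of all genes), with a median of 0.46 over the 11, and the exceptions were Rpl7l1 and Rps27l. Rpl7l1, the paralog of Rpl7 known from large subunit assembly, was the only member whose groups were apart in the same direction in both sexes (lower in both, as for 1.36% of genes tested in both). It stood at 397.7, 292.8 and 307.4 CPM in Het164, Het165 and Het181 and at 235.0, 251.7 and 267.2 CPM in KO166, KO178 and KO188. Its male values were 386.0, 366.4 and 457.8 CPM in Het204, Het245 and Het249 and 306.9, 364.3 and 294.4 CPM in KO240, KO247 and KO255. The nearest male pair, Het245 and KO247, was almost level.

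The log2 fold change of Rpl7l1 was -0.40 ± 0.15 (SE) in females and -0.32 ± 0.136 (SE) in males, and neither passed (edgeR adjusted p = 0.193 and 0.353). Averaged over the sexes it was -0.36 (95% interval -0.578 to -0.147, edgeR adjusted p = 0.0613). The average passed with DESeq2 (adjusted p = 0.0152), with no filter on low counts (edgeR, 0.0221), without Het165 (edgeR, 0.0246) and without KO247 (edgeR, 0.0396). Rpl7 itself was at 493 to 647 CPM in female Het and 629 to 945 CPM in female KO libraries, which overlapped (edgeR adjusted p = 0.222).

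Rps27l, the p53-induced paralog of Rps27, was at 231, 171 and 248.7 CPM in female Het and 187.7, 206 and 212 CPM in female KO libraries. Its male values were 156, 199 and 172 CPM in Het and 153, 202 and 135 CPM in KO libraries, so that it overlapped in both sexes. Rpl22 and Rpl22l1, a pair in which each affects the other's level, were high together in female KO libraries. Rpl22 was at 63.7, 73.3 and 56.9 CPM in Het and 79.5, 98.3 and 117 CPM in KO libraries, and Rpl22l1 at 155, 145 and 111 CPM in Het and 173, 199.8 and 237 CPM in KO libraries. Both had groups apart, and neither passed by edgeR (adjusted p = 0.0828 and 0.102). DESeq2 called both (723 of 14036 genes), and the edgeR fit of all 12 libraries called Rpl22l1 only (477 of 14772 genes). In males both overlapped, with log2 fold changes of 0.08 and 0.00.

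The second and the third highest female changes belonged to gene copies at low level. Rps4l, an autosomal copy of Rps4x, was at 5.69, 6.01 and 3.92 CPM in Het and 7.54, 11.1 and 10.2 CPM in KO libraries. Its log2 fold change was 0.88 ± 0.246 (SE, edgeR adjusted p = 0.0913), and DESeq2 called it (adjusted p = 0.0238). Rps3a2 was at 2.58, 3.47 and 2.44 CPM in Het and 5.62, 4.44 and 5.23 CPM in KO libraries. Its log2 fold change was 0.85 ± 0.264 (SE, edgeR adjusted p = 0.125, DESeq2 adjusted p = 0.0754). Both had groups apart in females and overlapping ones in males, where Rps4l was at 4.6 to 7.74 CPM in Het and 2.94 to 6.76 CPM in KO libraries and Rps3a2 at 1.54 to 2.24 and 1.71 to 2.59 CPM. Since multi-mapped reads were left out by the counting, levels of such copies are uncertain. The muscle paralog Rpl3l and the germline paralogs Rpl39l and Rpl10l stayed below the level set for members.

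**Figure D4:**
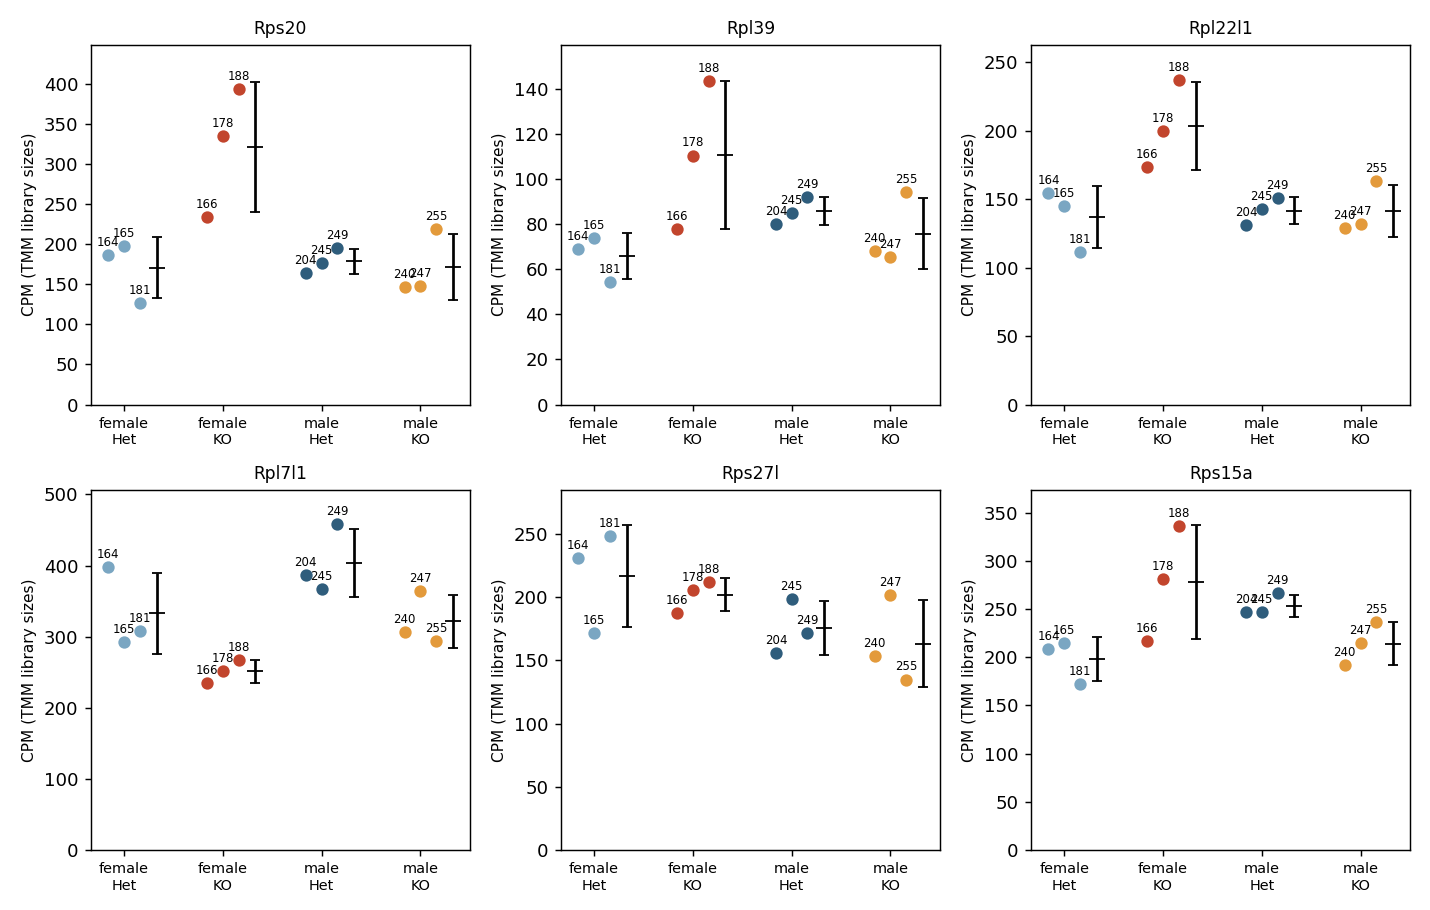
CPM (TMM library sizes) of Rps20, Rpl39, Rpl22l1, Rpl7l1, Rps27l and Rps15a, one point per library with its animal number and, beside the points, the group mean with its SD (n = 3). Female KO libraries stand above female Het libraries for Rps20, Rpl39, Rpl22l1 and Rps15a and below them for Rpl7l1, and Rps27l overlaps.

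Since most members stood on one side, the sequences around their start sites were read from the RefSeq promoter table (GRCm38.p6, 250 bases before to 50 after the start). An entry was found for 61 of the 84 members. Those without one included Rps20, Rps14, Rplp1, Rps4l and Rps3a2. The windows of members with a single entry at either end of the female order are shown from 45 bases before to 15 after the start. The first 4 had the highest and the last 4 the lowest female change among those members. Capitals mark the letters CCGGAAG on either strand, and a run of C and T that begins with C within 3 bases of the start, the form of a TOP motif. In order they lie at chrX:37085208-37085267 (minus strand), chr17:24720018-24720077 (plus), chr7:109519150-109519209 (plus), chr10:20208394-20208453 (plus), chr17:46782642-46782701 (minus), chr2:39005117-39005176 (minus), chr17:27635230-27635289 (minus) and chr17:33955651-33955710 (minus).
Rpl39: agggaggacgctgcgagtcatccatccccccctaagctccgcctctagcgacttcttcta
Rps2: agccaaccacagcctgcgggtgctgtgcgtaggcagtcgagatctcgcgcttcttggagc
Rpl27a: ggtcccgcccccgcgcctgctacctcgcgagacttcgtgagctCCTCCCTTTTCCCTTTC
Rpl32l: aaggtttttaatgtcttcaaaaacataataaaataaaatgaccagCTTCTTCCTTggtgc
Rpl7l1: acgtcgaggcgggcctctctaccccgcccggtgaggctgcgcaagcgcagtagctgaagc
Rpl35: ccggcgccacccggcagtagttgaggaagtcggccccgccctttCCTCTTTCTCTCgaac
Rps10: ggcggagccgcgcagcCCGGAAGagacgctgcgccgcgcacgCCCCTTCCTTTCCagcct
Rps18: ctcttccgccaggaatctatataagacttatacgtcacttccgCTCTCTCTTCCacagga

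A run of C and 4 more C or T that begins within 3 bases of the annotated start was found in 27 of 72 promoter entries of the 61 members (37.5%), against 11.5% of all 32851 promoters in the table. Counted from the exact start base, a narrower form of the same match, it was found in 14 of 72 (19.4%), against 2.51% of all promoters. The letters CCGGAAG on either strand, the core that ETS factors such as GABPA bind, were in 26 of 72 (36.1%), against 8.86% of all promoters. The letters TGACNNNGC on either strand, the core of the element that NRF2 binds, were in 13 of 72 (18.1%), against 12.4% of all promoters. The 12 of 61 members with TGACNNNGC had a median female log2 fold change of 0.29 and those without it 0.44. Their male medians were -0.09 and -0.15. The 25 members with CCGGAAG and those without it had female medians of 0.35 and 0.43. The 26 members with a pyrimidine run near the start and those without one had female medians of 0.28 and 0.42. The female median was thus lower with each of these motifs, and the differences were not tested. Of the windows shown, a run is marked in 2 of the 4 from the high end of the order (Rpl27a and Rpl32l). It is marked in 3 of the 4 from the low end (Rpl35, Rps10 and Rps18). The windows of Rpl39, Rps2 and Rpl7l1 have neither motif marked. In Rpl39 and Rps2 a run of C and T begins just past the 3 bases allowed. Both also have CCGGAAG outside the window shown, within the bases read, so these counts depend on the cutoffs. A match describes letters, not a bound site.

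Lists for the rest of the protein synthesis machinery had female medians between -0.16 and 0.17. In a sex 0 to 1 gene of each was called by edgeR, against 2.27% of all genes in females and 0.861% in males. The 5 ribosomal proteins outside the symbol rule, among them Fau and Rack1, had 0 called and medians of 0.14 in females and -0.16 in males. The 21 elongation factors and other messages with a TOP motif, such as Eef1a1 and Tpt1, had 0 called in either sex (3 and 1 at an unadjusted p under 0.05, against 17.9% and 12.4% of all genes, as for the counts that follow) and medians of 0.17 and -0.09. The 30 initiation factors had 0 called (4 and 3 at an unadjusted p under 0.05) and medians of -0.13 in both sexes. The 40 ribosome biogenesis factors, which process ribosomal RNA and assemble the subunits, had 0 called (9 and 8 at an unadjusted p under 0.05) and medians of -0.16 and -0.19. All 40 had an averaged change below 0 (50.6% of all genes), with a median of -0.21. For this average 10 were lower at an unadjusted p under 0.05 (7.96% of all genes) and 0 past the adjusted threshold (1.27% of all genes). The 18 genes of RNA polymerase I and its factors had 0 called (1 and 4 at an unadjusted p under 0.05) and medians of -0.03 and -0.23. Of 77 mitochondrial ribosomal proteins 1 was called lower in females, against 0.983% of all genes, and the medians were -0.07 and -0.14. It was Mrpl45 (25.2 to 38.5 CPM in Het and 17.9 to 20.1 CPM in KO libraries, edgeR adjusted p = 0.0388). Differences between these lists and the members were not tested.

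Of the mTORC1, LARP1 and MYC control genes, 1 of 26 was called in females (2.27% of all genes). In males 1 of 25 was called (0.861% of all genes). In both cases this was Ddit4l, an inhibitor of mTORC1. It rose from between 29.98 and 39.1 CPM in female Het to between 120.1 and 139.0 CPM in female KO libraries (edgeR adjusted p = 1.07e-05). In males it rose from between 14.3 and 22.2 CPM in Het to between 51.5 and 77.1 CPM in KO libraries (edgeR adjusted p = 0.000412). The list had medians of 0.13 and 0.11.

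Several other values also stood high in female KO libraries. The mitochondrial ribosomal RNAs mt-Rnr1 and mt-Rnr2 summed to 4747, 4768 and 2971 CPM in Het164, Het165 and Het181 and to 6566, 8181 and 9970.4 CPM in KO166, KO178 and KO188. In males they summed to 4655, 4209 and 6581 CPM in Het and to 3624, 2378 and 4179 CPM in KO libraries. Of the pair mt-Rnr2 was called higher in females (edgeR adjusted p = 0.0328) and not in males (edgeR adjusted p = 0.264). Of 3 gene models at nuclear ribosomal RNA repeats, Gm26917 alone had counts, at 465, 967 and 174 CPM in female Het and at 1184, 1863 and 2331 CPM in female KO libraries. In both measures KO188 was the highest and Het181 the lowest female library, as for the ribosomal proteins. KO166 stood above every female Het library in both, unlike in the sum of the members. In males Gm26917 was at 1104, 1201 and 987 CPM in Het204, Het245 and Het249 and at 645, 535 and 1275 CPM in KO240, KO247 and KO255. Het249, the highest male library for the members and for the mitochondrial pair, was the lowest male Het library for Gm26917. By edgeR Gm26917 was not called in either sex. The method amplifies messages with a poly(A) tail, so these ribosomal RNA counts are no measure of ribosome number.

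The 300 named ribosomal protein pseudogenes, whose reads resemble those of the members, summed to 247.5, 236 and 205 CPM in Het164, Het165 and Het181 and to 229, 322 and 352 CPM in KO166, KO178 and KO188. Of the 89 tested in females 0 were called by edgeR (2.27% of all genes), and their median was 0.40. At an unadjusted p under 0.05 were 17 (17.9% of all genes), and all 17 were higher (8.89% of all genes). In males their sum was 243.6, 269.5 and 275 CPM in Het and 268, 242 and 298 CPM in KO libraries. There 0 of 68 tested were called by edgeR (0.861% of all genes), and 1 had an unadjusted p under 0.05 (12.4% of all genes). Their male median was 0.06, on the other side of 0 from that of the members. With pseudogene counts added to the member each is named for, the median of the members was 0.43 in females and 1 member passed, again Rps20. Genes that are no members and have 1000 exonic bases or fewer had a female median of 0.14 (990 genes), against 0.55 for the 15 members of that length, and in males -0.02 against -0.09. In the length ranges above 1000 bases, other genes had female medians from -0.03 to 0.01 and members from 0.30 to 0.55. The male medians there ran from -0.003 to 0.03 for other genes and from -0.17 to -0.09 for members. The 1933 other genes at 100 CPM or more had a female median of -0.09.

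**Figure D5:**
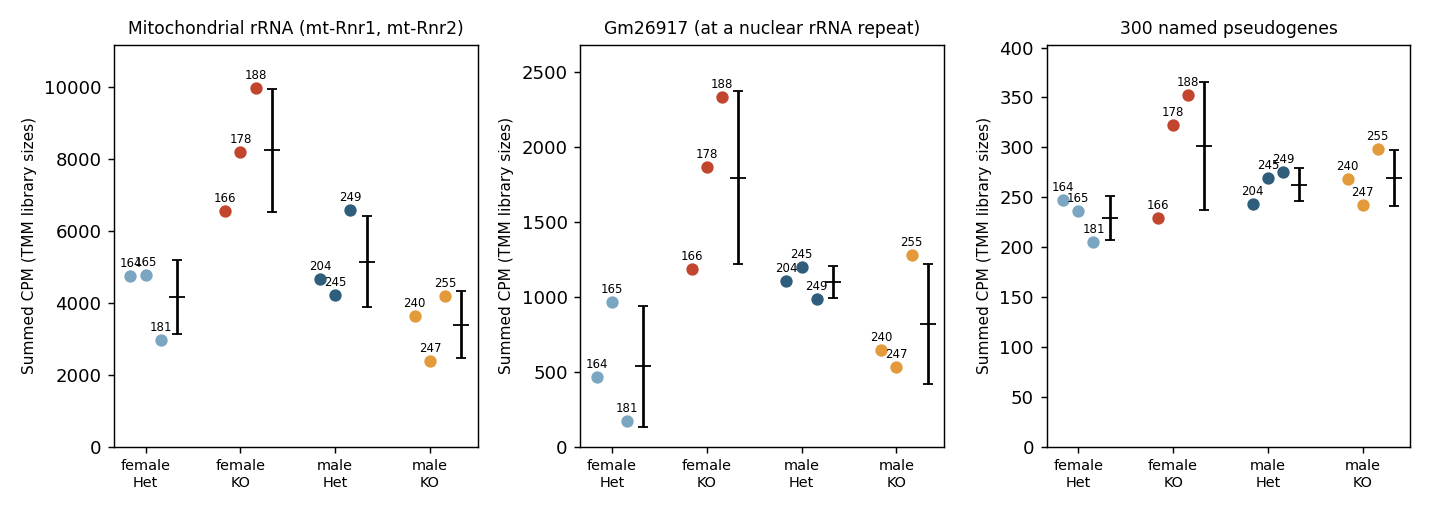
Summed CPM (TMM library sizes) of mt-Rnr1 and mt-Rnr2, of Gm26917 and of the 300 named ribosomal protein pseudogenes, one point per library with its animal number and, beside the points, the group mean with its SD (n = 3). Female KO libraries stand above female Het libraries in the left and the middle panel, and KO166 lies inside the Het range in the right panel.

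Markers of cell types differed between the female groups as well. The 14 satellite cell markers summed to 13405 to 14765 CPM in female Het and 8939 to 11661 CPM in female KO libraries, with 3 called lower (Cd34, Chrdl2 and Spry1, against 0.983% of all genes). The 11 leukocyte and macrophage markers summed to 112 to 167 CPM in female Het and 44.2 to 72.6 CPM in female KO libraries, with 3 called lower (Cd74, H2-Ab1 and Lyz2, against the same 0.983%) and 0 of them at 0 in every library. In males the satellite cell sum was 17518 to 21220.0 CPM in Het and 19217 to 20701 CPM in KO libraries, with 1 marker called lower (Chrdl2, against 0.157% of all genes), and the leukocyte sum was 30.4 to 120.3 CPM in Het and 67.4 to 98.4 CPM in KO libraries. For the other 7 cell types 0 markers were called by edgeR in either sex. Among them, the 8 markers of fibro-adipogenic progenitors summed to 4665 to 7160 CPM in female Het and 4409 to 5213 CPM in female KO libraries. In males their sum was 2840 to 4540 CPM in Het and 3777 to 4475 CPM in KO libraries. The part of these cell types, of the ribosomal RNA values and of gene length in the female shift of the ribosomal protein genes was not tested.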

How the data were processed

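Per the labels' protocols, cDNA came from column-purified RNA by Smart-Seq2, which has no molecular identifiers, and was made into libraries with Tn5. The authors counted whole fragments per Ensembl gene with featureCounts 2.0.0 on GRCm38 release 99, unstranded and without reads on several places or genes, per the file headers. The authors' files hold no estimated count, per the file headers, and rounding changed 0 values. Alignment with STAR to mm10 is named per the submitters' processing notes. Of 55385 genes 55144 had a symbol and 241 had none. The tables held 0 columns of other samples.

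Counts were tested in R 4.3.3 with edgeR 4.0.16 (quasi-likelihood F test, robust, with TMM and a filterByExpr minimum count of 10, Benjamini-Hochberg adjustment over all genes tested, threshold 0.05) on 6 libraries within each sex, and on all 12 with 4 group means for the difference and the average of the sexes. Printed CPM use TMM factors over 12 libraries, and exonic lengths came from the annotation. Intervals are 95%. The procedure was tested on simulated data. The labels name each animal by a number of its own, so replicates are animals and nothing pairs them. Alternatives were DESeq2 1.42.0, voom of limma 3.58.1, other scalings, no filter, pseudogene counts added, a fit of all 12 libraries for each sex, and leaving out each library.

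The members and gene lists were chosen with earlier results of these data known. Named genes were those that passed, the 4 highest and 4 lowest changes in each sex, those with groups apart in both sexes, the 5 highest and 5 lowest levels per kilobase, members of the role groups, and called genes of the lists. Rps2, Rps6, Rps15a, Rpl7, Rpl22l1 and Rplp1 are named from the role groups or the groups apart, and Gm26917 from the list of ribosomal RNA genes. Promoter letters came from RefSeq. Some single genes are not reported here.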

Additional observations from a re-analysis of the deposited data

How the results depend on the processing

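No paired analysis was possible because each animal has a number of its own and the groups share none. The count of members called in females was 1 in the test reported (319 of 14036 genes) and 25 with no filter on low counts (1000 of 29014). It was 11 with DESeq2 (723 of 14036) and 5 in a fit of all 12 libraries (477 of 14772). Leaving out 1 library gave 0 to 9, the 9 being without Het165 (1479 of 14439 genes). For the difference of the sexes the count of 0 became 14 with no filter (358 of 31671 genes) and 1 with DESeq2 (238 of 14772). For the average the count of 0 became 2 with no filter (858 of 31671 genes) and 1 with DESeq2 (843 of 14772). Leaving out 1 library gave 0 to 1 for the average. The cause of these changes was not tested. The median over members kept its sign in each comparison under each setting run. In females it ran from 0.26 to 0.57 and in males from -0.18 to -0.07 when 1 library was left out. Leaving out 1 library left 2 animals in its group.

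The direction of some small fitted changes turned when 1 library was left out. The log2 fold change then ran from -0.1364 to 0.2617 for Rps10 and from -0.0904 to 0.11 for Rps14 in females. In males it ran from -0.091 to 0.1913 for Rpl22, from -0.01 to 0.2222 for Rpl35, from -0.263 to 0.0397 for Rps20 and from -0.2779 to 0.0255 for Rps27l. Among the 24 changes of the 12 members that passed, lay at either end of the order or had groups apart in both sexes, other settings kept the direction and the side of the threshold in 307 cases, newly passed the test in 12 and no longer passed it in 4, all 4 being Rps20 in females. The 6 members below 10 CPM rest on the fewest counts, at least 20 in every library.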
